A study of Mus musculus with 15 samples.

Results

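The 8 genes described here encode the calcium release channels of the endoplasmic reticulum and 2 proteins that act on the same calcium. They are the ryanodine receptors Ryr1, Ryr2 and Ryr3, the inositol trisphosphate (IP3) receptors Itpr1, Itpr2 and Itpr3, the reticulum calcium pump gene Atp2a2 and the calcium-activated channel gene Trpm4. They were taken by symbol from the 46078 genes of a read count table of mouse brain, and all 8 were found. Ryr1 and Trpm4 were selected on their differences in level between these groups (Ryr1 in both comparisons with APP-PS1 mice given PBS, Trpm4 after antibody). Their differences are therefore given as a description, with the interval of the fit and no p. The other 6 genes complete the channel families and the store, and their p-values are adjusted over all 18974 genes tested.

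The endoplasmic reticulum is the main calcium store of a neuron, and Atp2a2, which encodes the pump SERCA2, fills it. Ryanodine receptors open when cytosolic calcium rises, or when a voltage sensor in the plasma membrane moves, and IP3 receptors open when IP3 made by phospholipase C binds them together with calcium. Ryr2 is best known from heart and is also a neuronal isoform, Ryr1 is the isoform of skeletal muscle, Itpr1 is the main IP3 receptor of neurons and Itpr2 that of astrocytes. Trpm4 lies in the plasma membrane and lets sodium in when calcium rises inside the cell, which depolarises it.

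RNA was sequenced from a region of 1 brain hemisphere of 15 mice, with 1 library each and 5 mice a group. The first group was APP-PS1 mice injected with the anti-CD8a antibody clone 2.43, which targets a co-receptor of cytotoxic T cells. The second was APP-PS1 mice injected with PBS, and the third was wild-type (WT) mice injected with PBS. APP-PS1 mice carry Mo/HuAPP695swe, an amyloid precursor protein gene joined from mouse and human parts and bearing the Swedish mutation, and PS1-dE9, a mutant human presenilin 1. Both transgenes are driven by the prion protein promoter in neurons of the central nervous system. Presenilin 1 is itself a protein of the endoplasmic reticulum. All mice were 12 months old. By the labels, each APP-PS1 group had 3 males and 2 females and the WT group had 1 male and 4 females, so sex was unequal between genotypes. Treatment lasted 4 weeks and comprised 10 intraperitoneal injections, each of 0.8 mg antibody, while PBS mice received 100 µL of PBS. An isotype control antibody is named in the treatment protocol, and no library of it was analysed here, so effects of the antibody's target and of antibody injection cannot be told apart. The dissected region is not named in those sources that were used.

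Counts assigned to genes ranged from 17736524 to 36485809 per library. App reads were at 2768 ± 266 CPM (counts scaled to the library's TMM-adjusted total) in anti-CD8a mice, 2713 ± 226 in APP-PS1 PBS mice and 1264 ± 40.6 in WT mice (SD, n = 5 each). Cd8a itself was near the limit of detection, with 53 reads in all anti-CD8a libraries together, 42 in APP-PS1 PBS libraries and 33 in WT libraries. Neuronal markers differed in pattern, with Snap25 at means of 2367, 2348 and 2349 CPM in the groups in that order and Syt1 at 1680, 1685 and 1677 CPM. Rbfox3 averaged 176, 152 and 176 CPM and Slc17a7, of excitatory neurons, 840, 735 and 811 CPM. Gad1 went another way, at 320, 340 and 373 CPM, lowest in anti-CD8a mice. The part of neuronal RNA content in the values of the 8 genes was not tested. Choroid plexus RNA differed between libraries, with Ttr above 1000 CPM in 5 of 15: anti-CD8a replicate 1, APP-PS1 PBS replicates 2 and 5, and WT replicates 3 and 5. The sex-linked genes of 1 library went against its labelled sex. No labels give a batch. In bulk tissue, a lower level may come from fewer cells of a type or from less RNA per cell, and these cannot be told apart.

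The 6 release channels share their architecture around the pore, which bears on whether short reads can tell them apart. The stretch that codes for the selectivity filter of each channel is printed 5′ to 3′ on the gene's strand, in GRCm38 coordinates from GENCODE M21. Capitals mark the 18 bases of the filter, in a window of 48 bases.
Ryr1, chr7:29005583-29005630, minus strand, exon 105: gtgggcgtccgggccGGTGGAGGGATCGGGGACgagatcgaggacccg
Ryr2, chr13:11560612-11560659, minus strand, exon 101: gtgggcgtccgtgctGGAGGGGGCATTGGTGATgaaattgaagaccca
Ryr3, chr2:112636616-112636663, minus strand, exon 100: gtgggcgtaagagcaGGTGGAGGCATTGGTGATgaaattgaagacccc
Itpr1, chr6:108518773-108518820, plus strand, exon 58: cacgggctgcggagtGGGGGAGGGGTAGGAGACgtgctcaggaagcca
Itpr2, chr6:146158896-146158943, minus strand, exon 53: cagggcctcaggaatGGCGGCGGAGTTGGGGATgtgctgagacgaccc
Itpr3, chr17:27118616-27118663, plus strand, exon 54: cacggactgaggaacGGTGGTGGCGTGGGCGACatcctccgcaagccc
Ryr2 and Ryr3 each matched Ryr1 at 36 of the 48 bases, and Itpr1, Itpr2 and Itpr3 matched Ryr1 at 28, 25 and 24. Itpr2 matched Itpr1 at 31 bases and Itpr3 did so at 34. Across whole transcripts, the longest identical run between family members was 35 bases, between Ryr1 and Ryr2, and no stretch of 75 bases, the number of sequencing cycles, was shared within either family. A read of that length therefore has no exact match in another family member. Overlaps with genes on the other strand were more frequent. Of the 75-base windows of the Ryr3 transcript, 5.01% also occur in Aven, and 2.28% of those of Ryr1 occur in the antisense gene Gm26604. The library kit is stranded, but no source used here gives the counting's strand setting. Gm26604 had 53 reads over all anti-CD8a libraries, 35 over APP-PS1 PBS libraries and 62 over WT libraries, against 530 to 1591 reads of Ryr1 in each single library.

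All 8 genes passed the filter on low counts, and the smallest count of any of them was 108, for Itpr3. Per kilobase of exon, the order of levels over the 15 libraries was Atp2a2 (mean 145 CPM per kb), Itpr1 (34.8), Ryr2 (15.3), Ryr3 (9.04), Itpr2 (2.8), Ryr1 (1.6), Trpm4 (0.994) and Itpr3 (0.808). The ranges of neighbours in this order did not overlap, except those of Ryr1 and Trpm4 and of Trpm4 and Itpr3. Trpm4 was above Itpr3 in 13 of 15 libraries. By this measure the reticulum pump was at 4.23 times the level of Itpr1 (median ratio over libraries, range 3.55 to 4.48). Exon length joined all annotated exons of a gene, and was longer than the transcript with the longest coding sequence. It was 10826 bases for Trpm4, 21838 for Ryr1 and 18319 for Itpr1, against transcripts of 4234, 15300 and 9870 bases. The order, ratios and isoform shares per length rest on this choice, and transcript lengths were not tried.

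**Figure D1:**
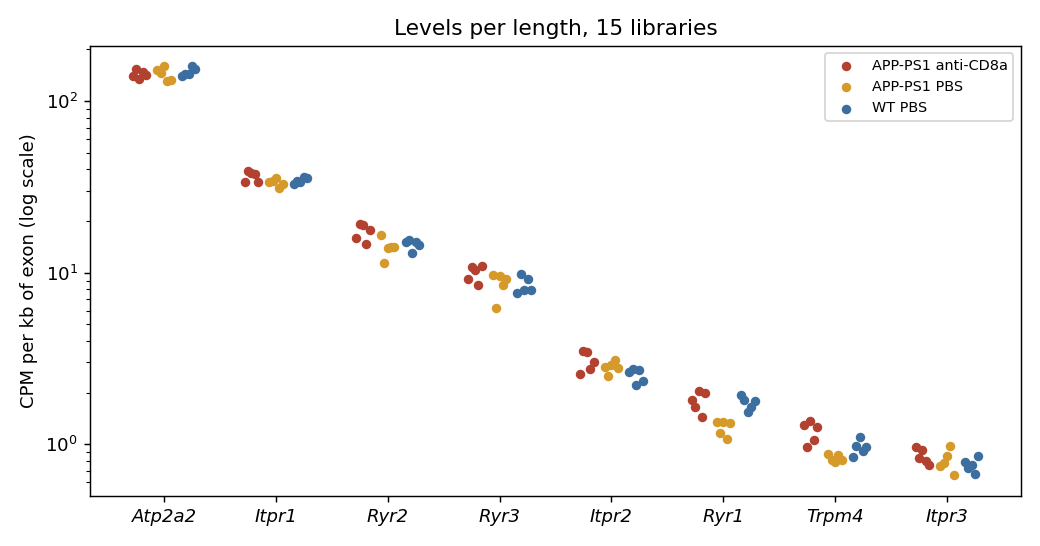
Levels of the 8 genes in CPM per kilobase of exon on a log axis, with 1 point per library and the 5 anti-CD8a, 5 APP-PS1 PBS and 5 WT libraries side by side. Atp2a2 is at 130 to 159 CPM per kb and Itpr3 at 0.661 to 0.981, and the APP-PS1 PBS points of Ryr1 lie below both other groups.

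Within the ryanodine receptors, Ryr2 made up 59.5 ± 1.08% of the summed per-length level in anti-CD8a mice, 58.7 ± 1.97% in APP-PS1 PBS mice and 58.7 ± 1.67% in WT mice (SD, n = 5 each). Ryr3 made up 34.3, 36 and 34.2% in the same groups. Ryr1 was the minor isoform, at 6.17 ± 0.621%, 5.3 ± 0.657% and 7.06 ± 0.59%. The IP3 receptors were dominated by Itpr1, at 90.3, 90.2 and 91.3%, with Itpr2 at 7.56, 7.63 and 6.7% and Itpr3 at 2.14, 2.17 and 2.02%. The isoform order was the same in the 3 groups.

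Ryr1 (ENSMUSG00000030592, chr7:29003344-29125179, minus strand, GRCm38, GENCODE M21, as for the genes that follow) encodes the channel that couples excitation to contraction in skeletal muscle, and it is also transcribed in brain neurons. Its levels were 39.5, 35.8, 44.7, 31.8 and 43.7 CPM in the anti-CD8a libraries (replicates 1 to 5), 29.4, 25.6, 29.4, 23.5 and 29.3 CPM in the APP-PS1 PBS libraries, and 42.6, 39.6, 33.7, 36.4 and 39 CPM in the WT libraries. Each APP-PS1 PBS library lay below each library of the other 2 groups, and the anti-CD8a and WT libraries overlapped. In APP-PS1 mice given PBS the mean was 27.4 ± 2.75 CPM, against 38.2 ± 3.39 CPM in WT mice, a log2 fold change of -0.49 (SE 0.10, 95% interval -0.71 to -0.27). In anti-CD8a mice it was 39.1 ± 5.43 CPM, against 27.4 ± 2.75 CPM in APP-PS1 mice given PBS, a log2 fold change of 0.51 (SE 0.10, interval 0.31 to 0.72). Both differences rest on the same 5 APP-PS1 PBS libraries. Anti-CD8a mice differed from WT mice by 0.02 on the log2 scale (interval -0.19 to 0.24).

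Non-overlapping ranges were found for 2.89% of all genes tested between APP-PS1 PBS and WT mice (1.06% lower in APP-PS1 mice), and for 1.80% between anti-CD8a and APP-PS1 PBS mice (0.954% higher in anti-CD8a mice). Between anti-CD8a and WT mice they were found for 3.04% of genes and for 0 of the 8. Because Ryr1 was chosen for these values, nothing is read from its place among those genes. Without the 5 Ttr-rich libraries, the fitted log2 fold change of Ryr1 was -0.57 in APP-PS1 PBS over WT mice and 0.51 in anti-CD8a over APP-PS1 PBS mice.

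Several skeletal muscle markers were near 0, and others were measurable at a low level. Ckm, muscle creatine kinase, had 15, 13 and 12 reads summed over the anti-CD8a, APP-PS1 PBS and WT libraries, and Tnnc2, fast troponin C, had 2, 0 and 3. Acta1, skeletal actin, averaged 4.5, 3.5 and 4.16 CPM in these groups, lowest in APP-PS1 PBS mice, and Ttn, titin, averaged 6.9, 5.65 and 5.21 CPM. The summed level of all 13 markers was 41.2 to 58.2 CPM in anti-CD8a libraries, 39.8 to 55.5 in APP-PS1 PBS libraries and 40.3 to 52.2 in WT libraries. Pvalb, which inhibitory neurons also express, accounted for 31.1, 32.1 and 33.3 CPM of these sums on average. Their part in the Ryr1 values was not tested.

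Most immediate early genes, which neuronal activity induces, and most hippocampal markers had estimates of the same sign as Ryr1 in the comparisons with APP-PS1 PBS mice, few or none past the threshold. Over all genes tested, 53.1% of estimates were below 0 in APP-PS1 PBS over WT mice, with 1.03% past the threshold and 11.5% at an unadjusted p under 0.05. In anti-CD8a over APP-PS1 PBS mice 54.1% were above 0, with 0.00% past the threshold and 13.3% at an unadjusted p under 0.05. The 18 immediate early genes summed to 495 to 790 CPM in anti-CD8a libraries, 404 to 604 in APP-PS1 PBS libraries and 560 to 640 in WT libraries. Their median log2 fold change was -0.31 in APP-PS1 PBS over WT mice. Of the 18, 1 was past the adjusted p of edgeR there (lower) and 7 had an unadjusted p under 0.05. In anti-CD8a over APP-PS1 PBS mice their median was 0.62, with 0 of 18 past the threshold and 15 of 18 at an unadjusted p under 0.05. In anti-CD8a over WT mice, where Ryr1 differed by 0.02, their median was 0.22, again with 0 of 18 past the threshold and 4 at an unadjusted p under 0.05. Of all genes, 1.94% passed there and 12.1% had an unadjusted p under 0.05. The 12 hippocampal markers summed to 897 to 1062 CPM in anti-CD8a libraries, 813 to 881 in APP-PS1 PBS libraries and 829 to 1000 in WT libraries, so that the anti-CD8a and APP-PS1 PBS ranges did not overlap. Their median log2 fold changes were -0.19 and 0.27 in the comparisons with APP-PS1 PBS mice, with 0 of 12 past the threshold in either (5 and 7 at an unadjusted p under 0.05). Medians of other neuron lists in these comparisons were -0.20 and -0.10 (striatal), 0.09 and 0.05 (thalamic), -0.05 and 0.05 (cortical) and 0.34 and -0.84 (cerebellar). The thalamic markers summed to 728 CPM in anti-CD8a replicate 4, where the next highest of its group was 273 CPM in replicate 1. That replicate 4 had the lowest Ryr1 (31.8 CPM), Ryr2 (419 CPM) and Ryr3 (162 CPM) of its group. The part of any of these listed genes in the Ryr1, Ryr2 or Ryr3 values was not tested.

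The stretch just before the annotated start of Ryr1 is shown because factors induced by activity, such as EGR proteins and CREB, have known binding letters that can be searched there. The bases come from RefSeq, build GRCm38.p6, chr7:29125180-29125401 on the minus strand, and end 28 bases before the RefSeq start. Capitals mark the letters GGGCGGGG, a GC box.
Ryr1 promoter: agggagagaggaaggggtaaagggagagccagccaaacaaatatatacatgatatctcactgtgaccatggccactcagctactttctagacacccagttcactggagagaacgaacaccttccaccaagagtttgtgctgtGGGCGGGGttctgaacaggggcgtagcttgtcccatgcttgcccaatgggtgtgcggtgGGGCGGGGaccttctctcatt
The GC box occurred 2 times, and 13.3% of 32851 promoters hold it on either strand in the corresponding stretch. The cyclic AMP response element TGACGTCA and its core TGACG, the EGR letters GCGTGGGCG and GCGGGGGCG, and the E-box CACGTG had no match on either strand, against 1.17%, 15.1%, 0.454%, 2.06% and 5.06% of promoters. The core lies within the full element. No match says only that these letters are not in this stretch.

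Ryr2 (ENSMUSG00000021313, chr13:11553102-12106945, minus strand), the receptor isoform of heart and the most abundant of the 3 here, was highest in anti-CD8a mice without passing the threshold. Its levels were 460, 549, 548, 419 and 511 CPM in anti-CD8a libraries, 475, 328, 404, 408 and 406 CPM in APP-PS1 PBS libraries, and 434, 447, 373, 432 and 415 CPM in WT libraries. All ranges overlapped, and APP-PS1 PBS replicate 2 was the lowest. The log2 fold change was 0.30 in anti-CD8a over APP-PS1 PBS mice (SE 0.09, interval 0.11 to 0.48, edgeR adjusted p = 0.237) and 0.28 in anti-CD8a over WT mice (SE 0.09, adjusted p = 0.182). Between APP-PS1 PBS and WT mice it was -0.01 (interval -0.21 to 0.18, adjusted p = 0.971).

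Ryr3 (ENSMUSG00000057378, chr2:112631355-113217096, minus strand), the isoform first described from brain, had 175, 206, 197, 162 and 207 CPM in anti-CD8a libraries, 184, 117, 182, 161 and 175 CPM in APP-PS1 PBS libraries, and 145, 187, 151, 174 and 150 CPM in WT libraries. These ranges overlapped as well, and again APP-PS1 PBS replicate 2, a Ttr-rich library, was the lowest. Its log2 fold change was 0.21 in anti-CD8a over APP-PS1 PBS mice (SE 0.11, edgeR adjusted p = 0.415), 0.07 in APP-PS1 PBS over WT mice (SE 0.11, adjusted p = 0.864) and 0.27 in anti-CD8a over WT mice (SE 0.11, adjusted p = 0.337). Summed per length, the 3 ryanodine receptors were at 29 ± 3.12 CPM per kb in anti-CD8a mice, 23.9 ± 3.22 in APP-PS1 PBS mice and 24.9 ± 1.77 in WT mice, with overlapping ranges.

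**Figure D2:**
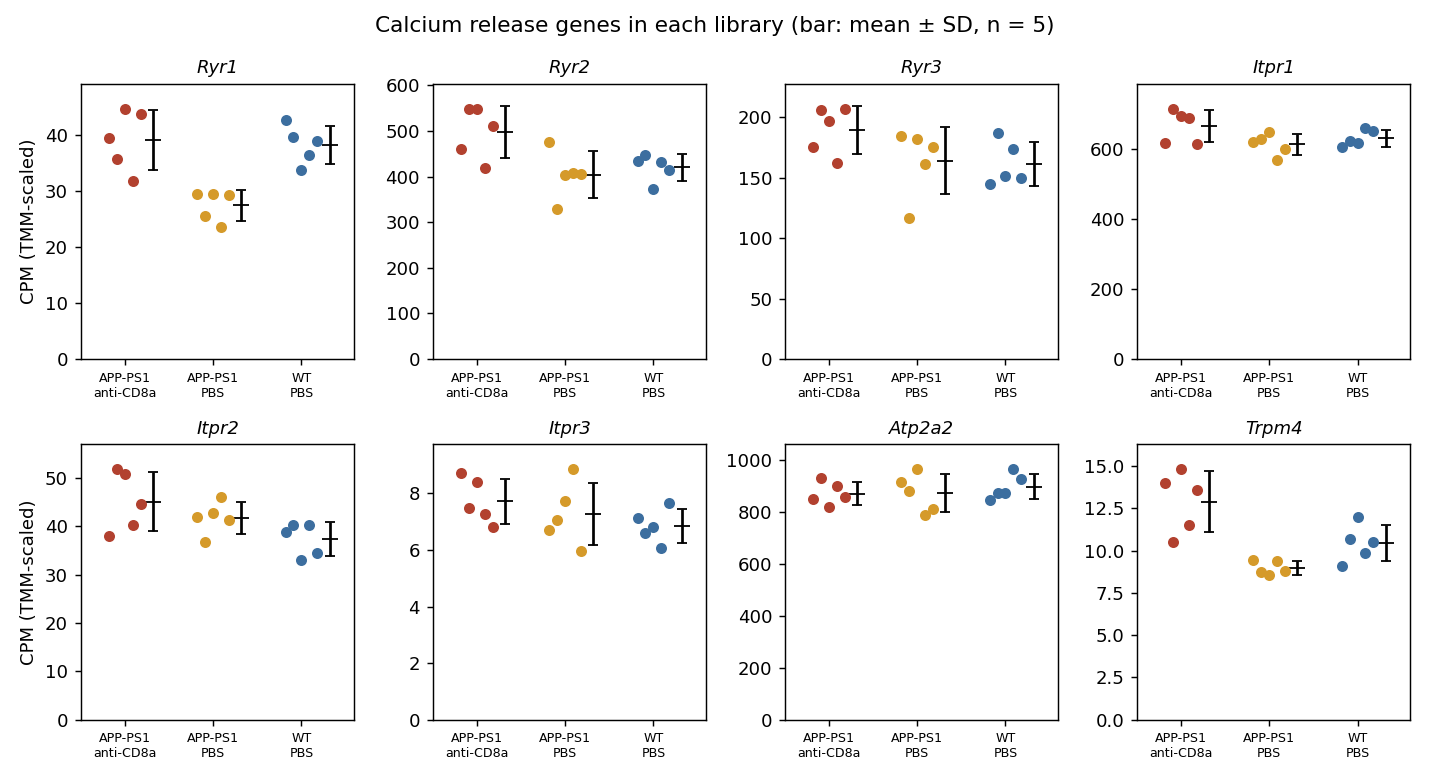
CPM of each of the 8 genes in every library, in 8 panels with axes that start at 0, for anti-CD8a, APP-PS1 PBS and WT mice from left to right, with mean ± SD bars. The APP-PS1 PBS points of Ryr1 (23.5 to 29.4 CPM) lie below both other groups, those of Trpm4 (8.53 to 9.45 CPM) lie below the anti-CD8a points, and the groups overlap in the other panels.

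Itpr1 (ENSMUSG00000030102, chr6:108213096-108551109, plus strand), the main IP3 receptor of neurons, passed the threshold in no comparison. Its levels were 618, 716, 694, 689 and 615 CPM in anti-CD8a libraries, 622, 629, 649, 569 and 600 CPM in APP-PS1 PBS libraries, and 605, 623, 617, 661 and 651 CPM in WT libraries, with overlapping ranges throughout. The log2 fold changes were 0.12 in anti-CD8a over APP-PS1 PBS mice (SE 0.06, edgeR adjusted p = 0.381), -0.04 in APP-PS1 PBS over WT mice (interval -0.17 to 0.09, adjusted p = 0.832) and 0.08 in anti-CD8a over WT mice (interval -0.05 to 0.20, adjusted p = 0.673). Itpr1 is very abundant in Purkinje cells of the cerebellum. Cerebellar markers were low but uneven, with Car8, a binding protein of Itpr1, at 3.99 to 6.64 CPM in anti-CD8a libraries, 6.07 to 26.3 in APP-PS1 PBS libraries and 4.22 to 6.73 in WT libraries. The 11 markers summed to 66.8 to 144, 88.4 to 159 and 82.1 to 165 CPM in these groups. Calb2 (means of 29.1, 33.1 and 32.8 CPM), Neurod1 (27.1, 23.2 and 25.7) and Zic1 (21.4, 26.5 and 27.6) made up most of these sums. Pcp2 averaged 0.67, 1.31 and 0.674 CPM and Cbln3 0.527, 1.45 and 0.786 CPM, highest in APP-PS1 PBS mice, where Neurod1 was lowest. The part of the cerebellar markers in the Itpr1 values was not tested.

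Itpr2 (ENSMUSG00000030287, chr6:146108299-146502223, minus strand), the IP3 receptor of astrocytes, was the gene among the 6 tested that passed the threshold in a comparison. It had 38.1, 51.8, 50.8, 40.4 and 44.6 CPM in anti-CD8a libraries, 42, 36.8, 42.7, 46.1 and 41.4 CPM in APP-PS1 PBS libraries, and 38.9, 40.4, 33, 40.3 and 34.5 CPM in WT libraries. The ranges of anti-CD8a and WT mice overlapped, and 3 of 5 anti-CD8a libraries lay above all WT libraries. Itpr2 rose in anti-CD8a over WT mice by a log2 fold change of 0.35 (SE 0.07, interval 0.19 to 0.50, edgeR adjusted p = 0.0213). In that comparison 369 genes (1.94%, with 1.76% higher and 0.184% lower) passed the threshold, and 1 of the 6 tested channel and pump genes passed it. At an unadjusted p under 0.05 stood 12.1% of all genes, and 3 of these 6, Ryr2, Ryr3 and Itpr2. The call was lost without anti-CD8a replicate 2 (log2 fold change 0.31, edgeR adjusted p = 0.0739), without anti-CD8a replicate 3 (0.32, adjusted p = 0.138), without the sex covariate (0.27, adjusted p = 0.190) and with a choroid plexus covariate (0.27, adjusted p = 0.0582).

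Between APP-PS1 PBS and WT mice the Itpr2 difference was 0.24 (SE 0.08, interval 0.08 to 0.40, edgeR adjusted p = 0.206), and between anti-CD8a and APP-PS1 PBS mice it was 0.10 (SE 0.07, interval -0.05 to 0.25, adjusted p = 0.526). The 10 astrocyte markers summed to 8238 to 10403 CPM in anti-CD8a libraries, 8258 to 9484 in APP-PS1 PBS libraries and 7340 to 8124 in WT libraries. These sums were above WT in both APP-PS1 groups, and Slc1a2 made up most of them (means of 5374, 5168 and 4807 CPM). Gfap averaged 880, 833 and 383 CPM, Fgfr3 115, 113 and 120 CPM and Gjb6 62.2, 87.8 and 81.8 CPM. Estimates were above 0 for 8 of 10 markers in anti-CD8a over WT mice and for 9 of 10 in APP-PS1 PBS over WT mice. Of these markers, 1 was called in anti-CD8a over WT mice and 2 in APP-PS1 PBS over WT mice, all higher (1.94% and 1.03% of all genes were called). Endothelial markers summed to 344 to 395, 324 to 398 and 325 to 374 CPM. The part of astrocyte number or state in the Itpr2 values was not tested.

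Itpr3 (ENSMUSG00000042644, chr17:27057304-27122223, plus strand), the isoform of secretory and sensory epithelia, was the least abundant per length. It had 8.71, 7.48, 8.39, 7.26 and 6.81 CPM in anti-CD8a libraries, 6.71, 7.06, 7.74, 8.85 and 5.96 CPM in APP-PS1 PBS libraries, and 7.14, 6.6, 6.81, 6.06 and 7.68 CPM in WT libraries. The log2 fold changes were 0.08 in anti-CD8a over APP-PS1 PBS mice (interval -0.15 to 0.32, edgeR adjusted p = 0.757), 0.08 in APP-PS1 PBS over WT mice (interval -0.17 to 0.33, adjusted p = 0.833) and 0.17 in anti-CD8a over WT mice (interval -0.08 to 0.41, adjusted p = 0.614). Without the Ttr-rich libraries Itpr3 moved to 0.38 in APP-PS1 PBS over WT mice (SE 0.14, edgeR adjusted p = 0.641). Summed per length, the IP3 receptors were at 40.3 ± 2.84 CPM per kb in anti-CD8a mice, 37.1 ± 1.52 in APP-PS1 PBS mice and 37.8 ± 1.3 in WT mice.

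Atp2a2 (ENSMUSG00000029467, chr5:122453513-122502225, minus strand), the pump that returns calcium to the store, passed the threshold in no comparison either. Its levels were 851, 931, 819, 900 and 858 CPM in anti-CD8a libraries, 916, 883, 965, 788 and 811 CPM in APP-PS1 PBS libraries, and 849, 875, 876, 965 and 928 CPM in WT libraries. The log2 fold change in anti-CD8a over APP-PS1 PBS mice was 0.002 (interval -0.12 to 0.13, edgeR adjusted p = 0.994). It was -0.08 both in APP-PS1 PBS over WT mice (interval -0.21 to 0.05, adjusted p = 0.666) and in anti-CD8a over WT mice (interval -0.21 to 0.06, adjusted p = 0.680).

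Over the 6 tested genes, 0 passed the threshold in APP-PS1 PBS over WT mice, where 195 genes (1.03%) of all tested did and 11.5% had an unadjusted p under 0.05. In anti-CD8a over APP-PS1 PBS mice 0 of 6 passed, and so did 0 of all genes tested (0.00%), where 2529 (13.3%) had an unadjusted p under 0.05 and DESeq2 called 143. Intervals that excluded 0 before adjustment were those of Itpr2 in the first of these comparisons, of Ryr2 in the second, and of Ryr2, Ryr3 and Itpr2 in anti-CD8a over WT mice.

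**Figure D3:**
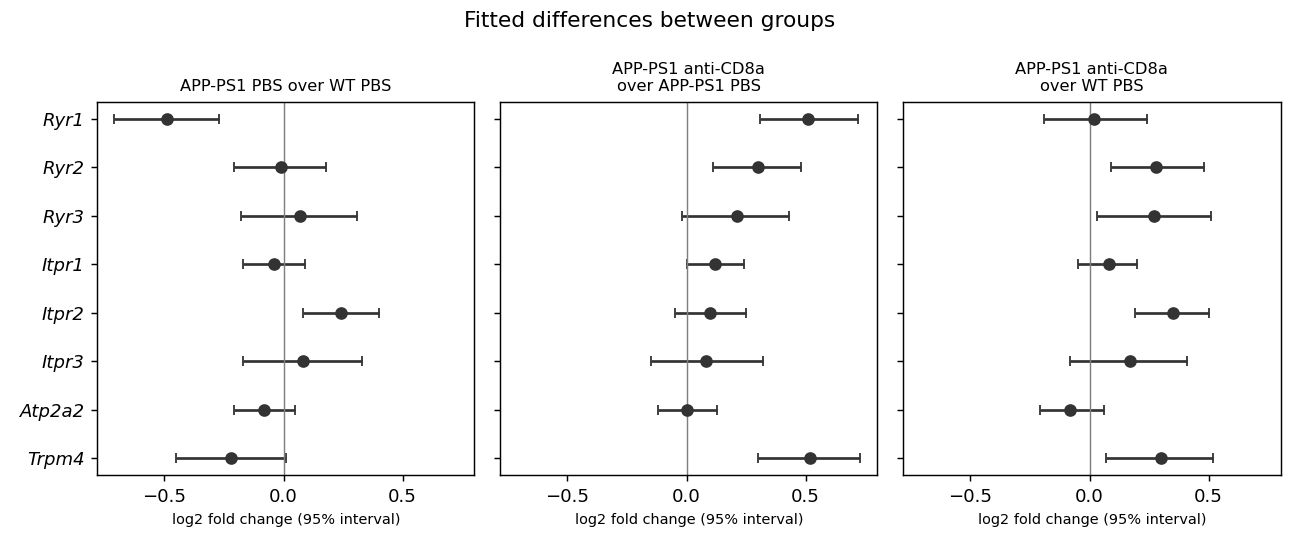
Fitted log2 fold changes of the 8 genes with 95% intervals from edgeR, in APP-PS1 PBS over WT mice, anti-CD8a over APP-PS1 PBS mice and anti-CD8a over WT mice. The interval of Ryr1 is -0.71 to -0.27 in the left panel, 0.31 to 0.72 in the middle panel and -0.19 to 0.24 in the right panel. Ryr1 and Trpm4 were selected on their differences between these groups, so their intervals are a description and not a test.

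Trpm4 (ENSMUSG00000038260, chr7:45302632-45333780, minus strand) is opened by cytosolic calcium, passes sodium and potassium and not calcium, and in neurons and vascular muscle it depolarises the membrane. It had 14, 10.5, 14.8, 11.5 and 13.6 CPM in anti-CD8a libraries, 9.45, 8.76, 8.53, 9.36 and 8.78 CPM in APP-PS1 PBS libraries, and 9.1, 10.7, 12, 9.87 and 10.5 CPM in WT libraries. Every anti-CD8a library lay above every APP-PS1 PBS library, the PBS libraries lay close together, and the WT range overlapped both. In anti-CD8a mice the mean was 12.9 ± 1.81 CPM, against 8.98 ± 0.407 CPM in APP-PS1 mice given PBS, a log2 fold change of 0.52 (SE 0.10, interval 0.30 to 0.73). In APP-PS1 mice given PBS it was 8.98 ± 0.407 CPM, against 10.4 ± 1.09 CPM in WT mice, a log2 fold change of -0.22 (SE 0.11, interval -0.45 to 0.01). Anti-CD8a over WT mice gave 0.30 (SE 0.11, interval 0.07 to 0.52). Trpm4 was chosen for the first of these differences, and no test is given.

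The share of reads that the counting gave to no feature varied alongside Trpm4. It was 23.2 ± 2.29% in anti-CD8a libraries, 23.1 ± 1.34% in APP-PS1 PBS libraries and 21.7 ± 1.33% in WT libraries. Within groups, Trpm4 and this share had a Pearson r of 0.69 over 15 libraries (permutation p = 0.0229, adjusted over the 8 genes p = 0.183) and a Spearman rho of 0.74 (permutation p = 0.00738), and r was 0.68 without the 2 libraries of most extreme share. The relation did not pass the adjustment. With this share as a covariate, a fit added after the data were seen, Trpm4 differed by 0.50 in anti-CD8a over APP-PS1 PBS mice and by 0.18 in anti-CD8a over WT mice. Ryr1 then differed by 0.50 in anti-CD8a over APP-PS1 PBS mice and by -0.58 in APP-PS1 PBS over WT mice. Markers of mural cells and fibroblasts, another site of Trpm4, summed to 338 to 587 CPM in anti-CD8a libraries, 350 to 709 in APP-PS1 PBS libraries and 374 to 721 in WT libraries, with medians of 365, 673 and 492 CPM. Their part in the Trpm4 values was not tested. Without the Ttr-rich libraries Trpm4 had 10.5 to 14.8 CPM in 4 anti-CD8a libraries and 8.53 to 9.45 CPM in 3 APP-PS1 PBS libraries.

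**Figure D4:**
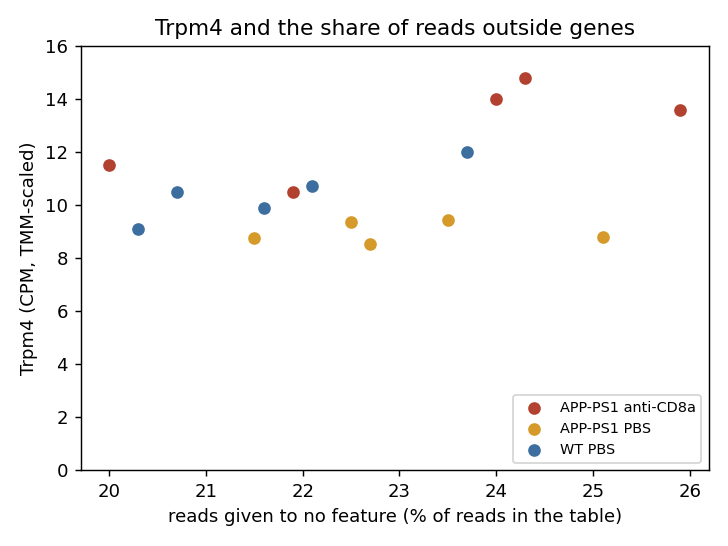
Trpm4 in CPM (axis from 0) against the percent of reads given to no feature, with 1 point for each anti-CD8a, APP-PS1 PBS and WT library. The APP-PS1 PBS points stay between 8.53 and 9.45 CPM across shares that overlap those of the anti-CD8a libraries (20 to 25.9%).

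Some of the 8 genes varied together inside the groups. Of the 28 pairs, 3 passed an adjusted p of 0.05 for the correlation of deviations from the group means over 15 libraries (100000 stratified permutations, two-sided). Ryr2 and Ryr3 had r = 0.82 (permutation p = 0.00117, adjusted p = 0.0323, rho 0.68), and r was 0.62 without the 2 libraries most extreme for Ryr2. Ryr2 and Itpr2 had r = 0.78 (permutation p = 0.00231, adjusted p = 0.0323, rho 0.8), and 0.72 without the 2 most extreme for Ryr2. Itpr1 and Atp2a2 had r = 0.71 (permutation p = 0.00434, adjusted p = 0.0405, rho 0.66), and 0.68 without the 2 most extreme for Itpr1. Libraries extreme only for the second gene of a pair were kept. Ryr1 and Trpm4, which differed between the APP-PS1 groups by similar amounts, had r = 0.21 within groups (permutation p = 0.538, adjusted p = 0.972). The Ttr-rich libraries held the lowest Itpr2 values of each group. These were 38.1 CPM in anti-CD8a mice, 36.8 and 41.4 CPM in APP-PS1 PBS mice and 33 and 34.5 CPM in WT mice. Without these libraries the group means of Ryr2 were 507, 429 and 437 CPM, against 497, 404 and 420 CPM over all libraries. Anti-CD8a replicate 4, which was not Ttr-rich, had the lowest Ryr2 of its group (419 CPM). The part of choroid plexus RNA in the correlations was not tested.

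Across all 15 libraries, the genes outside the set whose log2 CPM was most like that of Ryr1 were 2010300C02Rik (r = 0.868), Mtmr12 (0.857), Slc26a10 (0.854), Nab2 (0.846) and Adcy1 (0.832). Nab2 encodes a co-repressor of EGR transcription factors and Adcy1 a calcium-stimulated adenylyl cyclase of neurons. For Trpm4 they were Urb1 (0.891), Fbrsl1 (0.891), Wdr91 (0.884), Lrrc4 (0.875) and Tmem184b (0.873). These values include the differences between groups. Within groups the r with Ryr1 was 0.801 for Mtmr12 and 0.46 for Adcy1, and the r with Trpm4 was 0.748 for Fbrsl1 and 0.576 for Urb1.

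The wider calcium handling machinery was read from 7 lists of other genes, 128 in all, of which 121 could be tested. In APP-PS1 PBS over WT mice 0 of 121 passed the threshold, with 19 at an unadjusted p under 0.05 (11.5% of all genes were), and DESeq2 called 3, against 361 of 18953 genes over the whole table. In anti-CD8a over APP-PS1 PBS mice 0 of 121 passed, with 25 at an unadjusted p under 0.05 (13.3% of all genes were), and DESeq2 called 3, against 143 of 18953 genes. In anti-CD8a over WT mice 3 of 121 passed (2.48%, against 1.94% of all genes tested), 2 higher and 1 lower.

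Hspa5, the calcium-binding chaperone BiP of the reticulum lumen, fell in anti-CD8a over WT mice by a log2 fold change of -0.65 (SE 0.14, edgeR adjusted p = 0.0218). Its range was 244 to 336 CPM in anti-CD8a libraries, 315 to 502 in APP-PS1 PBS libraries and 354 to 629 in WT libraries. WT replicate 5, a Ttr-rich library, held the highest value, and without it the log2 fold change was -0.43 (edgeR adjusted p = 0.139), while without anti-CD8a replicate 3 it was -0.67 (adjusted p = 0.0869). Mcur1, which regulates the mitochondrial calcium uniporter, rose by 0.29 (SE 0.06, edgeR adjusted p = 0.0219), with 39.1 to 47 CPM in anti-CD8a libraries and 30.7 to 35.2 CPM in WT libraries. Without anti-CD8a replicate 3 its log2 fold change was 0.21 (edgeR adjusted p = 0.168), without WT replicate 1 it was 0.28 (adjusted p = 0.0501) and without WT replicate 3 it was 0.25 (adjusted p = 0.0571).

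Plcb2, a phospholipase C that makes IP3 and is found in blood and immune cells, rose by 0.53 (SE 0.13, edgeR adjusted p = 0.0435), with 4.61 to 7.64 CPM in anti-CD8a libraries and 3.7 to 4.53 CPM in WT libraries. The highest value was that of anti-CD8a replicate 3, and without it the log2 fold change was 0.35 (edgeR adjusted p = 0.333). The call was also lost on leaving out any of the other libraries of the 2 groups except anti-CD8a replicate 2 and WT replicate 5, with log2 fold changes of 0.50 to 0.57. The 10 microglia markers summed to 551 to 1065 CPM in anti-CD8a libraries, 580 to 780 in APP-PS1 PBS libraries and 382 to 450 in WT libraries. Of these markers, 9 of 10 were called higher in anti-CD8a over WT mice (1.76% of all genes were). In APP-PS1 PBS over WT mice 7 of 10 markers were called, all higher (1.03% of all genes were called in either direction). Their part in the Plcb2 values was not tested. The calls of Hspa5, Mcur1 and Plcb2 were all lost with a choroid plexus covariate, with the 2 groups fitted alone, without the Ttr-rich libraries and with the share of reads given to no feature as a covariate, and those of Hspa5 and Plcb2 also without the sex covariate. Plcb2 was lost without the low-count filter as well. Without the Ttr-rich libraries the log2 fold change of Hspa5 was -0.38 (edgeR adjusted p = 0.107).

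Among the genes of smallest p in their lists, some were lowest on average in APP-PS1 PBS mice without passing the threshold. Jph4, a junctophilin that holds the neuronal reticulum close to the plasma membrane, had 308 to 352 CPM in anti-CD8a libraries, 264 to 295 in APP-PS1 PBS libraries and 304 to 367 in WT libraries, so that the APP-PS1 PBS range lay below both others. Its log2 fold changes were -0.20 in APP-PS1 PBS over WT mice (edgeR adjusted p = 0.178) and 0.19 in anti-CD8a over APP-PS1 PBS mice (adjusted p = 0.237). Abcc8, the sulphonylurea receptor that can assemble with Trpm4, had 32.3 to 41.2 CPM in anti-CD8a libraries, 25.3 to 32.3 in APP-PS1 PBS libraries and 32.4 to 36.2 in WT libraries. The values at the shared edge agree only after rounding, and the ranges did not overlap. The log2 fold changes were -0.27 (edgeR adjusted p = 0.187) and 0.35 (adjusted p = 0.223) in those comparisons. Slc8a2, a sodium-calcium exchanger of neurons, gave -0.38 (edgeR adjusted p = 0.0543) and 0.37 (adjusted p = 0.223), with 280 to 335 CPM in anti-CD8a libraries, 215 to 294 in APP-PS1 PBS libraries and 278 to 341 in WT libraries, so that its APP-PS1 PBS range overlapped both others. These genes were named for their small p in the comparisons that chose Ryr1, and all share the APP-PS1 PBS libraries.

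Other genes of smallest p in their lists were close to these sizes. Jph3, a second neuronal junctophilin, had a log2 fold change of -0.29 in APP-PS1 PBS over WT mice (edgeR adjusted p = 0.175), Itpka, which phosphorylates IP3 in dendritic spines, -0.30 (adjusted p = 0.141) and Orai2, a store-operated channel, -0.26 (adjusted p = 0.187). Itpripl2, which encodes a protein related to an IP3 receptor binding partner, had 0.40 (edgeR adjusted p = 0.0596). In anti-CD8a over APP-PS1 PBS mice, Jph1, the junctophilin of skeletal muscle, had 0.33 (edgeR adjusted p = 0.223), Bok, a Bcl-2 family protein that binds IP3 receptors, 0.27 (adjusted p = 0.250), and Orai2 0.24 (adjusted p = 0.250). Some genes acting in the lumen had estimates below 0 in this comparison, while Casq2, Hrc and Casq1, calcium-binding proteins of the muscle reticulum, had 0.38, 0.38 and 0.24 and did not pass the threshold (named after their values were seen). Hspa5 had -0.44 (edgeR adjusted p = 0.250), Erp44, which inhibits Itpr1 from the lumen, -0.19 (adjusted p = 0.229) and the lectin chaperone Canx -0.18 (adjusted p = 0.262).

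Trpm7, a relative of Trpm4 that itself conducts calcium and magnesium, had an estimate of the opposite sign to Trpm4. It had 106 to 113 CPM in anti-CD8a libraries and 115 to 133 CPM in APP-PS1 PBS libraries, without overlap, and a log2 fold change of -0.18 (SE 0.05, edgeR adjusted p = 0.223). Trpm1, another member of that family, was barely transcribed, at 1.41 ± 0.652 CPM in anti-CD8a mice, 1.05 ± 0.302 in APP-PS1 PBS mice and 0.746 ± 0.293 in WT mice. The plasma membrane pump gene Atp2b2 had -0.15 in APP-PS1 PBS over WT mice (edgeR adjusted p = 0.331) and 0.18 in anti-CD8a over APP-PS1 PBS mice (adjusted p = 0.250). Stim1, the lumenal sensor that opens Orai channels, had -0.10 in APP-PS1 PBS over WT mice (edgeR adjusted p = 0.421). Rcn2, a lumenal calcium-binding protein, had 0.09 in that comparison (edgeR adjusted p = 0.531). Trpc4, a cation channel of the plasma membrane, had -0.22 in anti-CD8a over APP-PS1 PBS mice (edgeR adjusted p = 0.354) and Micu3 -0.13 (adjusted p = 0.394).

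By list, the 22 ryanodine receptor partners had a median log2 fold change of -0.08 in APP-PS1 PBS over WT mice (16 of 22 below 0) and 0.08 in anti-CD8a over APP-PS1 PBS mice (15 of 22 above 0). The 18 pumps and lumenal buffers had medians of 0.06 and -0.14 (12 of 18 above 0, then 12 of 18 below). The 32 genes of IP3 production and receptor regulation had 0.01 in both. For store-operated entry (16 genes) the medians were -0.05 and 0.04, for calcium export (13 genes) -0.08 and 0.05, for mitochondrial uptake (12 genes) -0.03 and -0.00, and for TRPM channels and Trpm4 partners (8 genes) 0.07 and -0.04. Over all genes tested the medians were -0.011 and 0.015, with 46.9% of estimates above 0 and 53.1% below in APP-PS1 PBS over WT mice, and 54.1% above and 45.9% below in anti-CD8a over APP-PS1 PBS mice. No test was made on the lists.

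**Figure D5:**
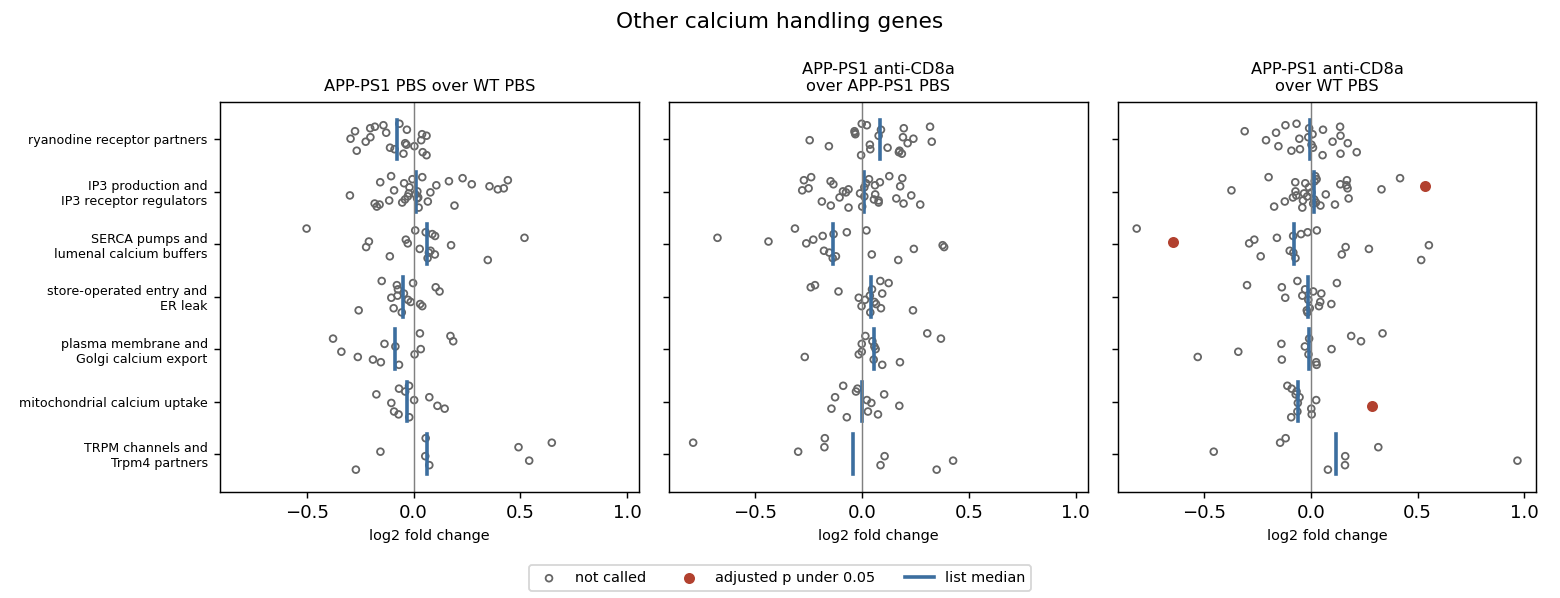
Fitted log2 fold changes of the 121 other calcium handling genes in 7 lists, with the list median as a line, in APP-PS1 PBS over WT mice, anti-CD8a over APP-PS1 PBS mice and anti-CD8a over WT mice. Filled points mark the 3 genes past an adjusted p of 0.05, all in anti-CD8a over WT mice (Plcb2 at 0.53, Hspa5 at -0.65 and Mcur1 at 0.29).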

How the data were processed

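The authors deposited raw read counts per gene from poly(A) RNA, made by a stranded kit per the labels' protocols. The submitters' processing notes name Bowtie2 2.2.2 and HTSeq 0.11.2, beside FastQC and DESeq2, and build GRCm38. Bowtie2 makes no spliced alignments, so reads over exon junctions can be lost, which matters for genes of many exons such as Ryr1 (109 exon blocks). No source used here gives the annotation release or strand setting. The 5 summary lines of the table were left out of library sizes; reads given to no feature were 20 to 25.9%.

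CPM values were computed here with TMM scaling, and per-length values with the joined length of all GENCODE M21 exons of a gene. Tests used edgeR 4.0.16 in R 4.3.3 (glmQLFit, glmQLFTest, two-sided) on 18974 genes kept by filterByExpr, with group and labelled sex in 1 model of all 15 libraries (11 residual degrees of freedom) and Benjamini-Hochberg adjustment at 0.05. The fit was tested on simulated data. DESeq2 1.42.0 and other covariates, filters and sample sets were alternatives. Each library is a separate mouse per the labels, and 30 same-group pairs differed by more than counting noise (7.3 to 35.8 chi-square units for each degree of freedom). Intervals give the uncertainty of a fitted difference between groups, drawn from the spread between mice, and not the range of single mice. The genes and lists were chosen with earlier results of these data known. From each list, genes past the threshold and the 2 of smallest p in each of the comparisons with APP-PS1 PBS mice were named, and 1 such gene is not reported here. From RefSeq, promoters of 4 of the 8 genes were matched.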

Additional observations from a re-analysis of the deposited data

Results flagged for a closer look

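Among the 8 calcium release genes, no library stood far from the other 4 of its group. Among the 22 other named calcium handling genes it happened 7 times in a total of 90 groups tested over all 30 genes, and chance gives about 1 in 20 groups. In anti-CD8a mice, replicate 3 was highest for Plcb2 (7.64 CPM, next 4.85) and for Mcur1 (47 CPM, next 40.2). In APP-PS1 mice given PBS, replicate 1 was highest for Slc8a2 (294 CPM, next 235). In WT mice, replicate 5 was highest for Hspa5 (629 CPM, next 403) and Trpm7 (127 CPM, next 117), replicate 4 for Plcb2 (4.53 CPM, next 3.81) and replicate 3 for Trpm1 (1.27 CPM, next 0.632).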

How the results depend on the processing

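Over the alternatives run, Ryr1 had log2 fold changes of -0.58 to -0.41 in APP-PS1 PBS over WT mice. In anti-CD8a over APP-PS1 PBS mice Ryr1 had 0.45 to 0.59, and so did Trpm4. Both genes were selected on these differences, so nothing is read from their constant sign, and their passes are not counted. Of the genes other than Ryr1 and Trpm4, 0 passed in APP-PS1 PBS over WT mice and 0 in anti-CD8a over APP-PS1 PBS mice. Both counts stayed at 0 in every alternative and without any 1 library. Over the whole table, anti-CD8a over APP-PS1 PBS mice gave 13 of 33134 genes without the low-count filter and 143 of 18953 with DESeq2. In anti-CD8a over WT mice 1 passed (Itpr2), against 0 without the sex covariate or with a choroid plexus covariate, and 0 to 1 without 1 library. The cause was not tested.

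Over the 121 pathway genes, APP-PS1 PBS over WT mice gave 0, against 1 without the filter, 3 with DESeq2, 3 with the choroid plexus covariate, 1 with the 2 groups alone and 0 to 2 without 1 library. Anti-CD8a over APP-PS1 PBS mice gave 0, against 3 with DESeq2. Anti-CD8a over WT mice gave 3, against 1 without the sex covariate, 0 with the choroid plexus covariate, the 2 groups alone, the Ttr-rich libraries left out or the share of reads without a feature as a covariate, and 0 to 4 without 1 library. Genes called over the whole table ranged from 98 to 361, 0 to 143 and 140 to 533 in the same order of comparisons.

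Reversed estimates were all small. In APP-PS1 PBS over WT mice Ryr2 was 0.05 and Hspa5 0.1 without the Ttr-rich libraries, and Ryr3 -0.02 with the share covariate. Leaving out 1 library gave -0.08 to 0.03 for Ryr2, -0.05 to 0.17 for Itpr3 and -0.28 to 0.02 for Hspa5. In anti-CD8a over APP-PS1 PBS mice Atp2a2 was -0.007 with relative log expression factors, DESeq2 or the 2 groups alone, -0.003 without the filter, -0.001 without sex, -0.01 with sex read from genes or the choroid plexus covariate, -0.009 without the Ttr-rich libraries (-0.04 to 0.03 without 1 library), and Itpr3 was -0.1 without the Ttr-rich libraries. In anti-CD8a over WT mice Ryr1 was -0.06 without them, -0.08 with the share covariate and -0.07 to 0.08 without 1 library. Alternatives on pathway genes and the share covariate were added after the data were seen. No paired analysis was possible because the groups share no animal numbers in the labels.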
